A study of Mus musculus with 12 samples.

Results

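The genes described here are 10 sensors, transcription factors and chaperones of the endoplasmic reticulum (ER) stress response, taken by symbol from the 45777 genes counted in mouse liver: Eif2ak3, Ern1, Atf6, Xbp1, Hspa5, Hsp90b1, Dnajb9, Sdf2l1, Creld2 and Pdia4. Measured values played no role in the rule that lists them, although earlier results of these data were known when it was written. RNA was sequenced from 12 livers of C57BL/6 mice, labelled 10 to 12 weeks old, with 3 livers in each of 4 groups. The groups were wild-type (WT) mice given vehicle, WT mice given acetaminophen (APAP), mice labelled Gα12KO (genotype Gα12-/-, the product of Gna12) given vehicle, and mice with that label given APAP. APAP is a painkiller that injures the liver in overdose, and the methods describe male mice that received 1 injection of an excessive dose and livers that were taken after 6 h. Each library is a whole liver of one animal, so fewer cells of a type and less RNA per cell cannot be told apart.

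Proteins that enter the ER are folded there by chaperones, and unfolded protein in its lumen activates 3 membrane sensors. PERK, encoded by Eif2ak3, slows translation by phosphorylating eIF2α. IRE1α, encoded by Ern1, splices the mRNA of Xbp1 so that it encodes an active transcription factor, while ATF6 is cut in the Golgi and releases one. These factors raise the transcription of ER chaperones, folding enzymes and degradation machinery, and the hepatocyte, which secretes most plasma proteins, carries a large ER. In the counts per gene the spliced and unspliced forms of Xbp1 are not separated, and the activity of the sensors is not measured.

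A DNA element named the ER stress response element (ERSE), CCAAT followed after 9 bases by CCACG, is the classical binding site of ATF6 and XBP1 in chaperone promoters. It was searched on both strands in RefSeq promoter windows of build GRCm38.p6 (the assembly of mm10), each reaching from 250 bases before to 50 bases after a transcription start. Such a window was at hand for 9 of the 10 genes, all but Atf6. An exact match stood in 3 of these 9 genes, against 37 of 27025 genes overall (0.137%). The element was not particular to the 10 genes. Among genes with a window it matched 3 of 13 other ER chaperones and co-chaperones and 2 of 13 oxidative folding enzymes. It also matched 2 of 14 genes of ER-associated degradation and 0 of 16 of translocation and COPII transport. The matches in the 3 genes are shown because they lie in genes with unlike changes after APAP. Each is written in the direction of the element, with its outer 5 bases on each side in capitals and 9 free bases between them. Hspa5 had 1 match, at chr2:34772025-34772043, whose first base lay 65 bases before the start. Hsp90b1 had a pair of matches, of which the first below is on the strand opposite to the gene at chr10:86705533-86705551 and the second is on the strand of the gene at chr10:86705638-86705656. The match of Creld2, at chr15:88819520-88819538, was on the strand opposite to the gene.
Hspa5 element: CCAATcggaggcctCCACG
Hsp90b1 element nearer the start: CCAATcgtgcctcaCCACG
Hsp90b1 element farther from the start: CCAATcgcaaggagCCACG
Creld2 element: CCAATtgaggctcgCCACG

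The whole windows are shown for Hspa5 (chr2:34771840-34772139, plus strand) and Hsp90b1 (chr10:86705395-86705694, minus strand), the pair of major ER chaperones that carry the element, and for Eif2ak3 (chr6:70844265-70844564, plus strand) and Dnajb9 (chr12:44210019-44210318, minus strand), which rose after APAP without holding it. They run 5′ to 3′ along the gene, and capitals mark the outer bases of the ERSE matches on either strand.
Hspa5: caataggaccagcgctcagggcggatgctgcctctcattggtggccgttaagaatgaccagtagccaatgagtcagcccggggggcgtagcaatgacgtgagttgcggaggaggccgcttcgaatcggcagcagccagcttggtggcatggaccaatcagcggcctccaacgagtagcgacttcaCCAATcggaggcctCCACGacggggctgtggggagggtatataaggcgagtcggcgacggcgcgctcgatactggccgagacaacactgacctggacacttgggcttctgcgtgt
Hsp90b1: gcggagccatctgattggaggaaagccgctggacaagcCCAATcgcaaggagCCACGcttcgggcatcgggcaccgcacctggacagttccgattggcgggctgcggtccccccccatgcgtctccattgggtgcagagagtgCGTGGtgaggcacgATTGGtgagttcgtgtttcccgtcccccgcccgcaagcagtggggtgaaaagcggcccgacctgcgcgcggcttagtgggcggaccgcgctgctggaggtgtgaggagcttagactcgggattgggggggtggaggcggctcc
Eif2ak3: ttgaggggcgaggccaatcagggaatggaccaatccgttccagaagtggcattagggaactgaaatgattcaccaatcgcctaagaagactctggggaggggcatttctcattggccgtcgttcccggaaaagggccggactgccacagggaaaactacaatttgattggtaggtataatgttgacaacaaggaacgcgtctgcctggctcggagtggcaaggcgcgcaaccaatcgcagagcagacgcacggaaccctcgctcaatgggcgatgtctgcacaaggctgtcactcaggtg
Dnajb9: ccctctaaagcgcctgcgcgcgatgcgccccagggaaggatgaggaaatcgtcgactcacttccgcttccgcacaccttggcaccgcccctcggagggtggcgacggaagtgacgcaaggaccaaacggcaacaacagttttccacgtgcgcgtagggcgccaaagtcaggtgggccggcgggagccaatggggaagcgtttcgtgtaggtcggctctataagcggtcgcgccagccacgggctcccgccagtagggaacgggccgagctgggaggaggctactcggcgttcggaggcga

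Other motifs were searched in the same windows. ERSE-II (ATTGG, 1 free base, CCACG), the UPRE TGACGTGG and the C/EBP-ATF element TGATGCAAT each matched 0 of the 9 genes, against 0.0444%, 0.714% and 0.222% of all genes. The short pieces were common, since CCACG stood in 7 of the 9 genes and in 35.5% of all genes, and CCAAT in 7 of the 9 and in 41.1% of all genes; both counts include the ends of the ERSE matches. A match describes letters in a window and does not show that a factor was bound.

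The libraries held 49737950 to 69566079 counts each, and all 10 genes passed the low-count filter in every comparison. Values per liver are CPM, that is, counts divided by the TMM-scaled library size, and levels of different genes are compared only as TPM, which takes transcript length into account. Gna12 stood at 54.9 ± 17.5 CPM (SD, n = 3) in WT vehicle livers and at 62.8 ± 7.10 CPM in vehicle livers labelled KO, so its counts did not separate the genotypes (edgeR adjusted p = 0.878), and the second genotype is called the KO label throughout. After APAP the values were 44.1 ± 18.1 and 46.0 ± 2.42 CPM. Under the KO label Gna12 was called lower after APAP (log2 fold change -0.44, edgeR adjusted p = 0.0387). It was not called in WT livers (-0.31, edgeR adjusted p = 0.699) or over the 12 livers (-0.38, edgeR adjusted p = 0.199). The study checked its knockout by PCR of tail DNA and qRT-PCR of liver Gna12, in mice not stated to be these 12. It also shows immunoblots of Gα12 protein from livers and primary hepatocytes of WT and Gna12 KO mice. Which part of Gna12 the line lacks is not given in the sources used here. Hepatocyte markers summed to at least 58458 CPM in every liver, whereas 7 of 12 pancreatic acinar markers were at 0 in all 12 livers. Neutrophil markers summed to 1.32 to 20.3 CPM in WT vehicle livers, 13.0 to 138 CPM in WT APAP livers, 1.42 to 2.47 CPM in vehicle livers of the KO label and 1.23 to 9.15 CPM in its APAP livers. The 7 neutrophil markers tested all had a log2 fold change above 0 over the 12 livers, and each had its highest count in WT APAP liver 1. Csf3r at 0.93, Mmp8 at 2.66, S100a9 at 2.69, S100a8 at 3.01 and Retnlg at 3.07 were not called. Of these 7 markers, Il1r2 and Cxcr2 rose after APAP over the 12 livers. So did endothelial Lyve1 (log2 fold change 1.09, edgeR adjusted p = 9.23e-05) and Pecam1 (0.41, edgeR adjusted p = 0.0121), 2 of 6 tested, and cholangiocyte Sox9 (3.20, edgeR adjusted p = 2.59e-05) and Epcam (0.82, edgeR adjusted p = 0.0209), 2 of 5 tested, while stellate Lrat was lower (-0.88, edgeR adjusted p = 0.0493), 1 of 6 tested. The other markers of these 3 cell types were not called. Endothelial Kdr stood at -0.42, Stab2 at -0.11, Fcgr2b at -0.07 and Clec4g at 0.08. Stellate Rgs5, Reln, Dcn and Pdgfrb stood at 0.11 to 0.18 and Colec11 at -0.07, opposite to or far from Lrat. Cholangiocyte Krt19, Krt7 and Spp1 stood at 0.46, 0.32 and 0.04. The endothelial and stellate lists thus did not move as a whole. Every cholangiocyte marker stood above 0, and the markers summed to 12.0 to 19.6 CPM in WT vehicle livers and 27.5 to 75.0 CPM in WT APAP livers. Under the KO label the sum was 16.9 to 26.3 CPM with vehicle and 28.9 to 36.3 CPM after APAP. The part of all these cells in the results was not tested. Besides holding the highest counts of the tested neutrophil markers, WT APAP liver 1 stood apart in erythroid markers, with 17367 CPM against 253 to 749 CPM in the other livers. Its TPM values were 0.587 of the level given by its CPM (median over 11663 genes). How far this liver carries the rise of the neutrophil markers was not tested.

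With vehicle, Hspa5 (BiP, the main Hsp70 chaperone of the ER lumen) and Hsp90b1 (GRP94, its Hsp90 counterpart) were the most abundant of the 10 transcripts. Their levels were 268 ± 55.9 and 264 ± 33.9 TPM (SD, n = 3) in WT livers and 294 ± 19.7 and 286 ± 26.4 TPM under the KO label, and within each genotype their ranges overlapped. Xbp1 followed with 99.5 ± 28.6 TPM under the KO label and 190 ± 163 TPM in WT livers, where 1 liver set the spread. Pdia4, Dnajb9 and Creld2 came next, at 53.2, 32.5 and 26.2 TPM in WT livers, and the ranges of Dnajb9 and Creld2 overlapped. The sensors were at the low end: Atf6 at 13.3 ± 1.79 TPM and Ern1 at 8.73 ± 3.51 TPM overlapped with Sdf2l1 at 9.73 ± 2.75 TPM, and Eif2ak3 was below all of them at 4.08 ± 0.563 TPM in WT livers. Under the KO label the order with vehicle was the same.

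Hspa5, Hsp90b1 and Xbp1 kept the first 3 places after APAP, with a wider gap between Hspa5 and Hsp90b1, while Dnajb9 moved above Pdia4 in the order of the means, with overlapping ranges in WT livers and separate ones under the KO label. Hspa5 reached 837 ± 318 TPM in WT livers and 1202 ± 125 TPM under the KO label, and it no longer overlapped with Hsp90b1, at 304 ± 96.3 and 376 ± 31.1 TPM. The WT mean includes WT APAP liver 1, at 497 TPM, whose TPM values are low for its CPM. In CPM the means of Hspa5 were closer, at 1411 in WT livers and 1609 under the KO label. Hspa5 made up 55.4% ± 0.945 (SD, n = 3) of the summed TPM of the 10 genes in WT livers, compared with 31.0% ± 3.85 with vehicle. The share under the KO label was 56.1% ± 4.57, compared with 34.1% ± 1.53. Eif2ak3, the lowest with vehicle, was at 13.8 ± 6.61 TPM in WT APAP livers, within the ranges of Atf6, Ern1 and Sdf2l1. Eif2ak3 under the KO label remained the lowest of the 10 by its mean after APAP, at 16.6 ± 4.83 TPM. Its values of 11.1 to 20.4 TPM lay below those of Ern1, at 22.8 to 27.4 TPM. They overlapped with those of Atf6, at 19.0 to 25.0 TPM, and Sdf2l1, at 7.49 to 30.4 TPM.

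Over the 12 livers, with genotype label as an additive term, 4 of the 10 genes rose after APAP and 0 fell: Hspa5, Eif2ak3, Dnajb9 and Ern1. Among the 16509 genes tested, 14% were called higher and 11.4% lower by the same edgeR quasi-likelihood test with Benjamini-Hochberg adjustment. The median log2 fold change was 0.43 for the 10 genes and 0.01 for all genes. For 3 of the 10 genes the 6 APAP livers did not overlap with the 6 vehicle livers, compared with 12.5% of all genes tested. In WT livers alone 2 of 10 genes rose and 0 fell, compared with 1.62% and 0.427% of 15693 genes, and under the KO label 5 rose and 0 fell, compared with 13% and 9.6% of 15665 genes. In WT livers 4 of the 10 genes had groups without overlap (24.9% of all genes), and under the KO label 6 of the 10 did (42.8% of all genes).

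**Figure D1:**
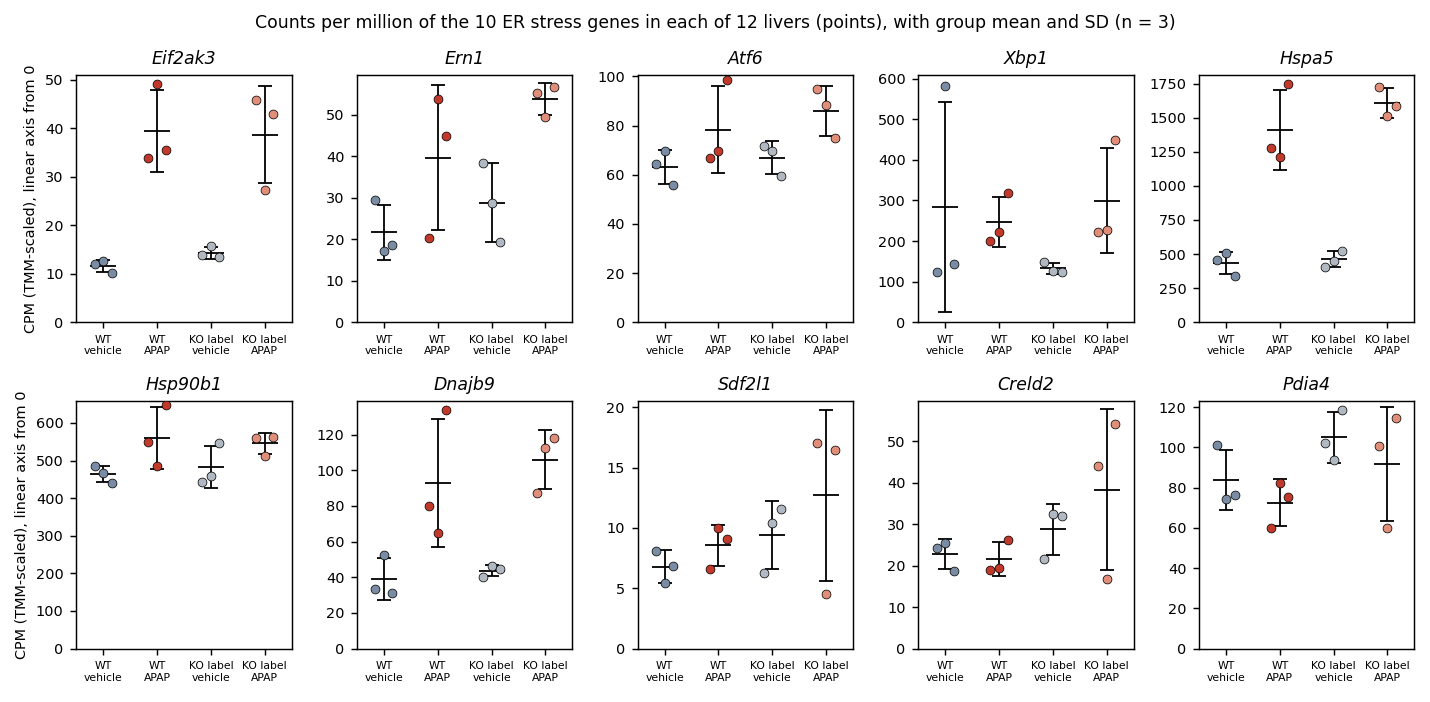
CPM (TMM-scaled counts, linear axes from 0) of the 10 genes in each of the 12 livers. Points are livers, and horizontal bars with whiskers are the group mean and SD (n = 3). For Hspa5, Eif2ak3 and Dnajb9 every APAP liver lies above every vehicle liver; for Xbp1 WT vehicle liver 2, at 582 CPM, lies above all others.

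Among the sensors, Eif2ak3 changed most. PERK is the sensor that starts the translational arm of the response. In WT livers Eif2ak3 stood at 12.1, 12.6 and 10.2 CPM with vehicle and at 33.8, 49.1 and 35.5 CPM after APAP. In livers of the KO label Eif2ak3 held 13.9, 15.7 and 13.4 CPM with vehicle and 45.9, 27.3 and 42.9 CPM after APAP. All 6 APAP livers were above all 6 vehicle livers, by a gap from 15.7 to 27.3 CPM. The log2 fold change over the 12 livers was 1.60 (SE 0.15, 3.03-fold; edgeR adjusted p = 1.80e-05). In WT livers alone it was 1.77 (SE 0.20, edgeR adjusted p = 0.00933) and under the KO label 1.44 (SE 0.20, edgeR adjusted p = 0.00279). The WT call did not hold without WT vehicle liver 1 (edgeR adjusted p = 0.0623) or without WT vehicle liver 3 (edgeR adjusted p = 0.0663), while the log2 fold change was 1.56 to 1.86 over the livers left out.

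Ern1, whose product IRE1α is both a kinase and an RNase, rose less and less evenly. With vehicle it stood at 29.4, 17.2 and 18.6 CPM in WT livers and at 38.4, 28.7 and 19.4 CPM under the KO label. After APAP the WT livers held 20.2, 53.9 and 44.9 CPM, and those of the KO label 55.2, 49.4 and 56.6 CPM. WT APAP liver 1 lay within the vehicle range, and the other 5 APAP livers were above every vehicle liver. The log2 fold change was 0.88 over the 12 livers (SE 0.23, 1.85-fold; edgeR adjusted p = 0.0139) and 1.03 without WT APAP liver 1. Ern1 was called under the KO label (log2 fold change 0.91, SE 0.23, edgeR adjusted p = 0.0239) and not in WT livers (0.88, SE 0.37, edgeR adjusted p = 0.273). The KO-label call did not hold without APAP liver 1 or 3 or vehicle liver 2, where the adjusted p from edgeR was up to 0.0819.

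Atf6, the sensor that is itself a transcription factor precursor, was called in none of the 6 comparisons. Its WT values were 64.2, 69.6 and 55.7 CPM with vehicle and 66.8, 69.8 and 98.6 CPM after APAP. Livers of the KO label held 71.8, 69.7 and 59.5 CPM with vehicle and 94.8, 88.3 and 75.0 CPM after APAP. The 3 APAP livers of the KO label lay above its vehicle livers, whereas the WT groups overlapped. Over the 12 livers the log2 fold change was 0.34 (95% interval 0.08 to 0.59, edgeR adjusted p = 0.0533), just outside the threshold of 0.05. With DESeq2 (adjusted p = 0.0281), or with at least 10 counts required in every liver (edgeR adjusted p = 0.0412), Atf6 passed it, and it also did so without any one of 4 livers: KO-label APAP liver 3, WT APAP liver 1 or 2, or WT vehicle liver 2.

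The transcript of Xbp1, the target of the IRE1α RNase, was dominated by 1 liver. WT vehicle livers held 123, 582 and 145 CPM, and WT APAP livers 201, 222 and 318 CPM. Livers of the KO label held 149, 127 and 124 CPM with vehicle and 223, 227 and 448 CPM after APAP. WT vehicle liver 2 exceeded every APAP liver, and the other 5 vehicle livers lay below every APAP liver. WT vehicle liver 2 also held 173 counts of Atf3, a stress-induced transcription factor, compared with 23 to 37 counts in the other vehicle livers; what sets this liver apart was not tested. Over the 12 livers the log2 fold change of Xbp1 was 0.48 (95% interval -0.39 to 1.35, edgeR adjusted p = 0.418), and without WT vehicle liver 2, an omission chosen after its value was seen, it was 1.04 (SE 0.20, edgeR adjusted p = 0.00291). Under the KO label Xbp1 rose (log2 fold change 1.18, SE 0.27, 2.26-fold; edgeR adjusted p = 0.0180), although not without vehicle liver 2 (edgeR adjusted p = 0.0721) or vehicle liver 3 (edgeR adjusted p = 0.0696). In WT livers its log2 fold change was -0.19 (SE 0.58) with all 6 livers and 0.89 (SE 0.27, edgeR adjusted p = 0.148) without WT vehicle liver 2.

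Hspa5 had the largest change of the 10 genes over the 12 livers and under the KO label, whereas in WT livers the log2 fold change of Eif2ak3 (1.77) was above that of Hspa5 (1.71). BiP binds unfolded chains and, by binding the sensors, holds them inactive. WT livers held 457, 505 and 342 CPM with vehicle and 1276, 1210 and 1747 CPM after APAP. For the KO label Hspa5 stood at 408, 449 and 524 CPM with vehicle and at 1728, 1513 and 1587 CPM after APAP. The highest vehicle liver, at 524 CPM, was far below the lowest APAP liver, at 1210 CPM. The log2 fold change was 1.75 over the 12 livers (SE 0.14, 3.37-fold; edgeR adjusted p = 4.87e-06). It was 1.71 in WT livers (SE 0.26, edgeR adjusted p = 0.0229) and 1.81 under the KO label (SE 0.16, edgeR adjusted p = 0.000437). The WT call did not hold without WT vehicle liver 1, WT vehicle liver 3 or WT APAP liver 3, where the adjusted p from edgeR was 0.0992 to 0.134 and the log2 fold change 1.53 to 1.74.

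Hsp90b1, which carries a pair of ERSE matches, did not pass the test. Its WT values were 485, 466 and 441 CPM with vehicle and 548, 485 and 648 CPM after APAP, where the highest vehicle value (484.6 CPM) and the lowest APAP value (485.4 CPM) nearly met. Under the KO label 443, 460 and 546 CPM with vehicle overlapped with 561, 513 and 564 CPM after APAP. The log2 fold change over the 12 livers was 0.22 (95% interval -0.004 to 0.45, edgeR adjusted p = 0.142), an interval that lies below that of Hspa5, 1.45 to 2.05.

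Dnajb9 encodes ERdj4, a co-chaperone of BiP that also acts on IRE1α. WT livers held 33.6, 52.5 and 30.9 CPM with vehicle and 80.0, 64.9 and 134 CPM after APAP, and livers of the KO label 40.1, 46.4 and 44.7 CPM and 87.1, 113 and 118 CPM. Every APAP liver was above every vehicle liver. The log2 fold change was 1.26 over the 12 livers (SE 0.18, 2.40-fold; edgeR adjusted p = 0.000413) and 1.29 under the KO label (SE 0.15, edgeR adjusted p = 0.00136). In WT livers it was 1.26 (SE 0.32) and missed the threshold (edgeR adjusted p = 0.0971), which it passed with DESeq2 (adjusted p = 0.00792) and in one fit of all 12 livers (edgeR adjusted p = 0.0162).

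**Figure D2:**
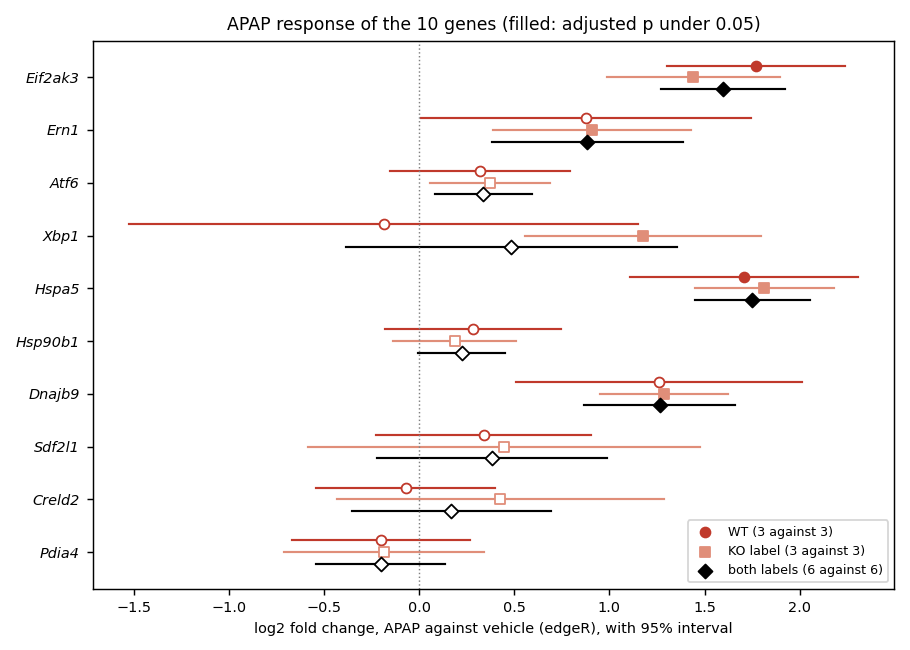
Log2 fold change of the 10 genes, APAP against vehicle, in WT livers (circles), livers of the KO label (squares) and all 12 livers (diamonds), with 95% intervals. Filled symbols passed an adjusted p of 0.05; the 12-liver values run from -0.20 for Pdia4 to 1.75 for Hspa5, and the WT interval of Xbp1 is the widest.

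Sdf2l1, Creld2 and Pdia4 encode further folding factors of the ER lumen, and none of them was called over the 12 livers. Sdf2l1, a partner of luminal J-domain co-chaperones, stood at 8.09, 5.43 and 6.87 CPM in WT vehicle livers and at 6.61, 9.96 and 9.05 CPM after APAP. Under the KO label it stood at 6.25, 10.4 and 11.5 CPM with vehicle and at 17.1, 4.54 and 16.5 CPM after APAP. The second APAP liver of the KO label was thus the lowest of all 12 livers and its group mates the highest. Creld2, an ER-resident disulfide isomerase-like protein, showed 24.3, 25.4 and 18.6 CPM with vehicle and 18.8, 19.5 and 26.3 CPM after APAP in WT livers. Creld2 values under the KO label were 21.7, 32.5 and 32.0 CPM with vehicle and 44.1, 16.8 and 54.2 CPM after APAP, with the same liver lowest. Pdia4 (ERp72, a protein disulfide isomerase) held 101, 74.2 and 76.5 CPM with vehicle and 59.7, 82.3 and 75.5 CPM after APAP in WT livers, and 102, 93.6 and 119 CPM and 100.5, 59.9 and 115 CPM under the KO label. The WT vehicle and APAP values overlapped for each of these 3 genes.

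The log2 fold changes over the 12 livers were 0.38 for Sdf2l1 (95% interval -0.22 to 0.99), 0.17 for Creld2 (-0.35 to 0.69) and -0.20 for Pdia4 (-0.54 to 0.14), with adjusted p-values from edgeR of 0.350, 0.653 and 0.382. The KO-label results of Sdf2l1 and Creld2 depended on APAP liver 2. Without it the log2 fold change of Sdf2l1 was 0.85 (SE 0.25, edgeR adjusted p = 0.0489) and that of Creld2 0.78 (SE 0.20, edgeR adjusted p = 0.0346), so that 7 of the 10 genes were called higher, while Pdia4 stood at 0.04 (SE 0.16, edgeR adjusted p = 0.872). In the same liver Hspa5 deviated from its group mean by -0.09 on the log2 scale, whereas the mean deviation of these 3 genes was -0.95.

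After group means were subtracted, the 3 genes varied together across the 12 livers. Pearson's r was 0.88 between Sdf2l1 and Creld2, 0.87 between Sdf2l1 and Pdia4 and 0.77 between Creld2 and Pdia4. Eif2ak3 moved with them, with r from 0.69 to 0.74. Hspa5 moved with Hsp90b1 (r = 0.82) and Dnajb9 (r = 0.72), and Xbp1 with Dnajb9 (r = 0.71). Between Dnajb9 and Sdf2l1 r was -0.17. These coefficients describe 12 livers that share libraries and depth between genes, and the largest deviations in them are those of KO-label APAP liver 2 and WT vehicle liver 2.

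**Figure D3:**
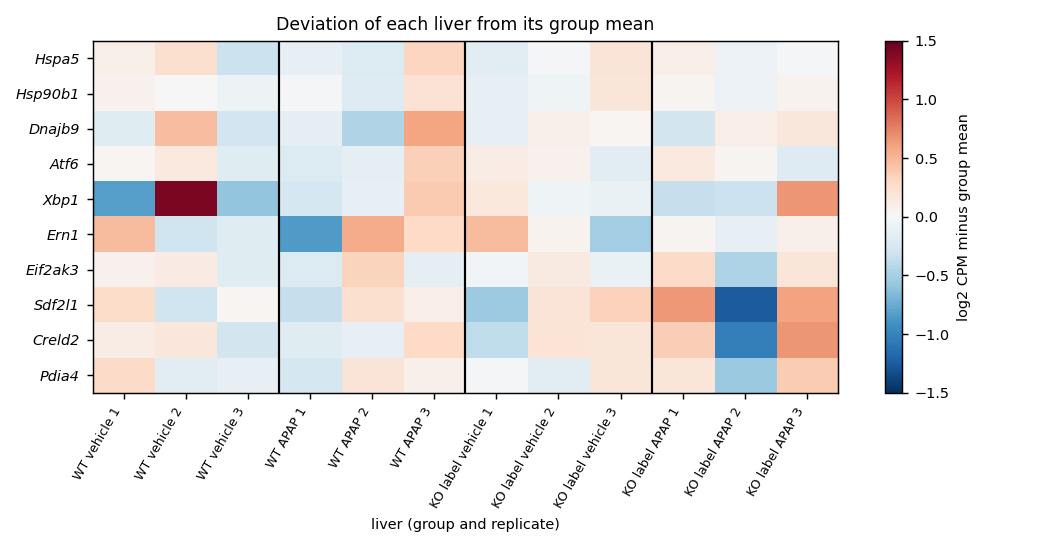
Deviation of each liver from the mean of its own group, in log2 CPM, for the 10 genes (rows) and 12 livers (columns, black lines between groups). Sdf2l1, Creld2 and Pdia4 are low together in KO-label APAP liver 2 (mean deviation -0.95), and Xbp1 is high in WT vehicle liver 2 (1.42).

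The unequal change of the chaperones was measured within livers as the ratio of counts, which library scaling cannot alter; this test was chosen after the values had been seen. The ratio of Hspa5 to Hsp90b1 counts was 0.775 to 1.08 in the 6 vehicle livers and 2.33 to 3.08 in the 6 APAP livers. Its geometric mean was 2.89-fold higher after APAP. The ratio of Hspa5 rose 2.76-fold against Sdf2l1, 3.16-fold against Creld2 and 3.94-fold against Pdia4, and in each case the 6 APAP livers lay above the 6 vehicle livers. An exact two-sided permutation of treatment within genotype label gave p = 0.005 for each of these 4 ratios, the smallest that 400 arrangements can give (Benjamini-Hochberg adjusted p = 0.00625 over 5 ratios). Against Dnajb9, which rose itself, the ratio rose 1.42-fold (exact permutation p = 0.01, adjusted p = 0.01), and its ranges of 9.63 to 13.6 and 13.1 to 19.8 overlapped. All 5 ratios share the counts of Hspa5, which already separated the treatments. Their p-values therefore repeat much of one result and add no separate support, and the ratios serve as a description of size.

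**Figure D4:**
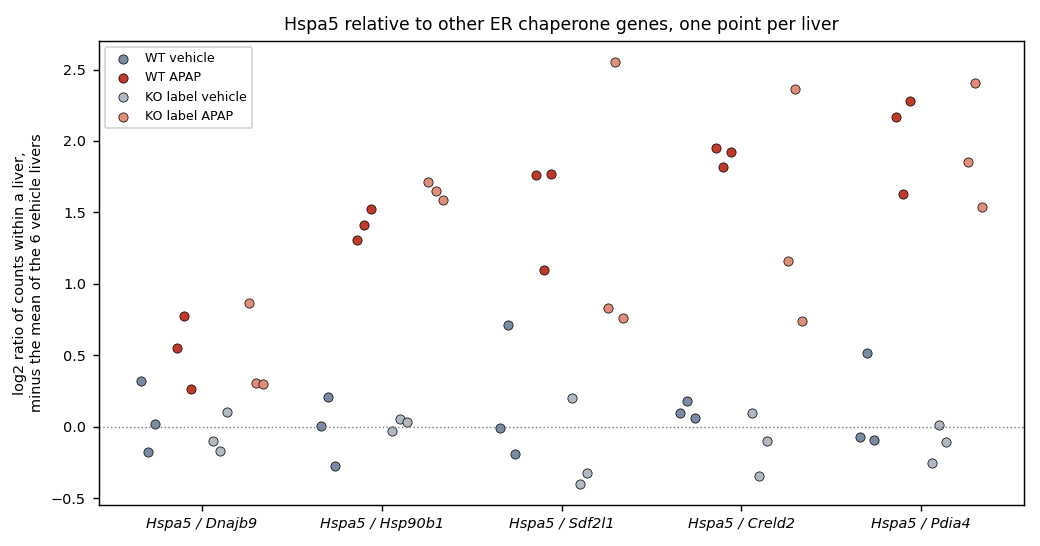
Log2 ratio of Hspa5 counts to those of 5 other genes within each liver, set to 0 at the mean of the 6 vehicle livers. Each point is a liver, coloured by group; against Hsp90b1 the mean shift after APAP is 1.53 on the log2 scale, and against Dnajb9 it is 0.51.

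Between the genotype labels none of the 10 genes was called. With vehicle, 0 of 10 genes passed the edgeR test, compared with 0.0262% of 15262 genes, and 0 of 10 had an unadjusted p under 0.05, compared with 7.56% of all genes; DESeq2 and limma also called 0 of the 10. In 1 of the 10 genes (14% of all genes) the labels did not overlap, namely Eif2ak3, at 10.2 to 12.6 CPM in WT livers and 13.4 to 15.7 CPM under the KO label, a log2 difference (WT minus KO label) of -0.30 (95% interval -0.62 to 0.02). After APAP 0 of 10 passed, compared with 0.0309% of 16174 genes, 0 of 10 had an unadjusted p under 0.05, compared with 3.31%, and 0 of 10 had labels without overlap, compared with 8.73%. DESeq2 and limma called 0 of the 10 here as well. The largest difference after APAP was that of Creld2, -0.82 (95% interval -1.71 to 0.07, edgeR adjusted p = 0.958), and that of Hspa5 was -0.18 (-0.67 to 0.32).

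The interaction of genotype label and treatment, which asks whether the APAP change differed between the labels, was called for 0 of 10 genes (0% of 16509 genes), and 0 of 10 had an unadjusted p under 0.05, compared with 5.14% of all genes; DESeq2 and limma called 0 of the 10. The APAP change under the KO label minus that in WT livers was 0.11 for Hspa5 (95% interval -0.51 to 0.72) and -0.33 for Eif2ak3 (-0.97 to 0.30). For Dnajb9 it was 0.02 (-0.80 to 0.85). For Xbp1 it was 1.36 (-0.20 to 2.92, edgeR adjusted p = 0.872), and 0.28 without WT vehicle liver 2. With intervals of this width, 3 livers a group do not show that the labels responded alike.

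The rest of the ER stress pathway was read from lists written by hand, and the counts are for the 12-liver edgeR test, read beside the 14% higher and 11.4% lower of all genes. Of 16 other ER chaperones and co-chaperones, 0 were called by the edgeR test at a median log2 fold change of 0.03, and 2 had an unadjusted p under 0.05. Manf, a secreted ER stress factor, had a log2 fold change of 0.35 (SE 0.19). Uggt1, the glucosyltransferase that checks glycoprotein folding, stood at -0.31 (SE 0.12) and Fkbp11, a prolyl isomerase, at -0.58 (SE 0.26). Uggt1 passed the threshold by limma (adjusted p = 0.0386) and without WT APAP liver 2 (edgeR adjusted p = 0.0446), and Fkbp11 without WT APAP liver 1 (edgeR adjusted p = 0.0186) or without WT vehicle liver 2 (edgeR adjusted p = 0.0361). In livers of the KO label Fkbp11 was called lower (-1.13, SE 0.18, edgeR adjusted p = 0.00475), compared with -0.01 (SE 0.36) in WT livers, and the interaction was not called (edgeR adjusted p = 0.872).

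Among 14 oxidative folding enzymes, 1 rose and 2 fell, at a median of -0.04. Ero1l, the oxidase that recharges disulfide isomerases, rose by 0.64 on the log2 scale (SE 0.09, edgeR adjusted p = 0.000327). Pdia5, a disulfide isomerase, fell by 1.19 on the log2 scale (SE 0.18, edgeR adjusted p = 0.000500): its CPM was 42.5 to 69.5 over the vehicle livers and 15.1 to 31.5 over the APAP livers. Txndc5, a further thioredoxin-domain isomerase, fell by 0.46 on the log2 scale (SE 0.11, edgeR adjusted p = 0.0100). Both isomerases thus moved opposite to Hspa5 and Dnajb9.

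Of 18 genes of ER-associated degradation, 3 rose and 5 fell, at a median of -0.04. Ube2g2, a ubiquitin-conjugating enzyme, rose by 0.62 on the log2 scale (SE 0.12), and Vcp, the ATPase that extracts substrates from the membrane, by 0.45 (SE 0.10). Erlec1, a lectin of the lumen, fell by 0.34 on the log2 scale (SE 0.09, edgeR adjusted p = 0.0145). The others were Ube2j1, higher, and Edem1, Edem2, Derl2 and Os9, lower. Ube2j1 is a membrane-bound ubiquitin-conjugating enzyme, Edem1 and Edem2 act on glycoproteins, Derl2 is a membrane protein of the export channel and Os9 a lectin. Of 20 genes of translocation and COPII transport, 0 rose and 1 fell, Sec31a, a coat protein, by 0.44 on the log2 scale (SE 0.12); Sec62 (-0.17, SE 0.08) was not called, nor was Spcs3 (-0.31, SE 0.11; edgeR adjusted p = 0.0527), which passed by DESeq2 (adjusted p = 0.0411) and limma (adjusted p = 0.0187).

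Among 13 tested genes around the sensors, 4 rose and 1 fell, at a median of 0.15. Yod1, a deubiquitinase, rose by 0.93 on the log2 scale (SE 0.22) and Mbtps2, the protease that makes the second cut in ATF6, by 0.40 (SE 0.11), although the latter call was lost by limma (adjusted p = 0.0896) and without WT APAP liver 3, WT vehicle liver 3 or KO-label vehicle liver 2 (edgeR adjusted p up to 0.0530); Traf2 and Wfs1 were the other 2. Crebrf, a regulator of CREB3-type factors, was lower by a log2 fold change of -0.40 (SE 0.12, edgeR adjusted p = 0.0278), a call lost without any one of 7 livers. Of 7 known substrates of IRE1α decay, 0 rose and 1 was lower, Hgsnat, at -0.26 (SE 0.09, edgeR adjusted p = 0.0430), a call lost without any one of 11 livers. Col6a1 (-0.80, SE 0.29) and Pmp22 (0.59, SE 0.28) were not called, although Col6a1 passed by DESeq2 (adjusted p = 0.0226), by limma (adjusted p = 0.0489) and without WT APAP liver 1, WT APAP liver 3 or WT vehicle liver 1 (edgeR adjusted p 0.0361 to 0.0455), and Pmp22 without WT APAP liver 2 (edgeR adjusted p = 0.0476). Col6a1 was called lower in livers of the KO label (-1.43, SE 0.33, edgeR adjusted p = 0.0186), compared with -0.16 (SE 0.27) in WT livers, and the interaction was not called (edgeR adjusted p = 0.872). The alternatives were run on the 12-liver test only, and only for the 3 genes of each list with the smallest unadjusted p. The calls of Ube2j1, Edem1, Edem2, Derl2, Os9, Traf2 and Wfs1 were therefore not checked by any alternative.

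The integrated stress response, which PERK shares with other eIF2α kinases, contrasted with these lists. Of 15 genes, 11 rose and 0 fell, at a median log2 fold change of 1.32. Atf3 held 0.448 to 3.63 CPM over the vehicle livers and 494 to 671 CPM over the APAP livers (log2 fold change 9.22, SE 0.55, edgeR adjusted p = 4.67e-07). Ddit3, which encodes CHOP, held 5.63 to 9.60 CPM over the vehicle livers and at least 110 CPM in each APAP liver (4.94, SE 0.23, edgeR adjusted p = 8.42e-08). Ppp1r15a, which encodes the phosphatase subunit GADD34, had a log2 fold change of 2.96 (SE 0.21). No gene of any of these 7 lists was called between the genotype labels, with vehicle or after APAP, or in the interaction. Between labels with vehicle, 4 of the 15 genes and 3 of the 7 IRE1α decay substrates had an unadjusted edgeR p under 0.05, compared with 7.56% of all genes. In the interaction 3 of 15 and 2 of 7 did, compared with 5.14%, and after APAP 0 of either list. The other lists held 0 or 1 such gene each with vehicle and in the interaction.

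**Figure D5:**
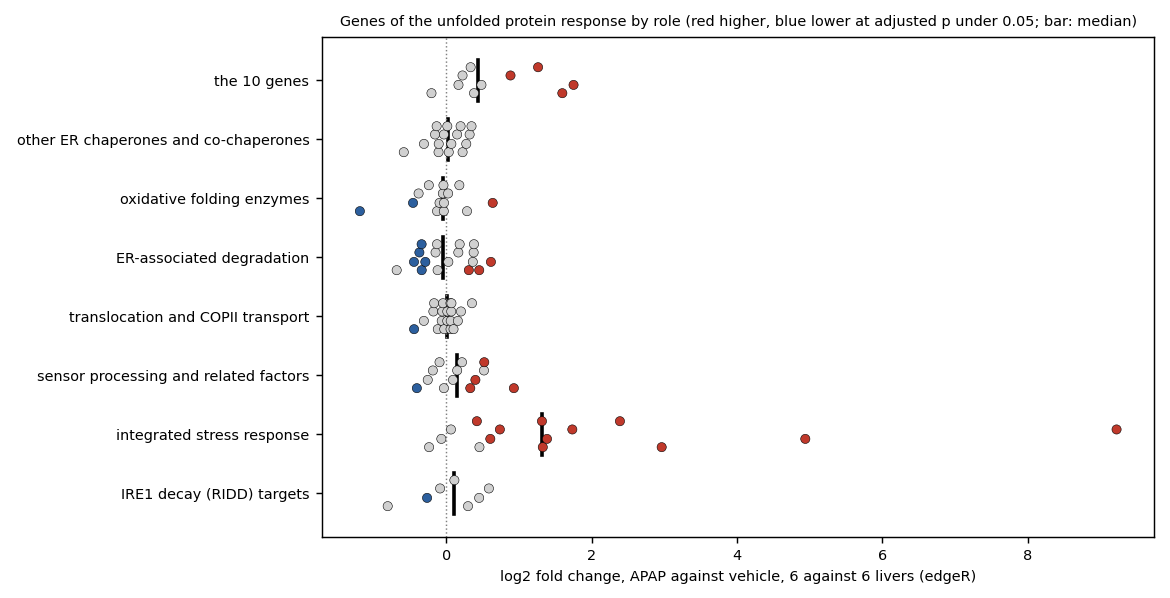
Log2 fold change after APAP over the 12 livers (horizontal axis) for the 10 genes and for 7 lists of related genes. Each point is a gene, red if higher and blue if lower at an adjusted p under 0.05, and the bar is the median; the medians are 0.43 for the 10 genes, 0.03 for the other chaperones and 1.32 for the integrated stress response.

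Outside these lists, the genes whose log2 CPM was most like the mean of the standardized values of the 10 genes over the 12 livers were Prmt3 (r = 0.96), Iars (0.95), Clcn5 (0.95), Piga (0.94) and Nup35 (0.94). After group means were subtracted they were Gm7324 (0.96), Iars (0.94), Gm9157 (0.94), Lsm2 (0.93) and LOC115488029 (0.93). Iars, the cytosolic isoleucyl-tRNA synthetase, was in both sets, with a log2 fold change after APAP of 0.67. These are the highest coefficients among all genes tested and are given as a description over 12 livers.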

How the data were processed

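RNA-seq of 12 mouse livers was used, 3 in each of 4 groups assigned by their titles; 0 per-sample columns were left unassigned. The submitters' processing notes name FastQC 0.11.7, Trimmomatic 0.38, HISAT2 2.1.0, Bowtie2 2.3.4.1 and StringTie 2.1.3b with mm10 and GRCm38, and a stranded poly-A kit. Per gene the authors deposited raw read counts, which are whole and not normalized. The deposited TPM values, corrected for length and depth by the authors, served to compare levels. The deposited FPKM values were not analysed further.

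Counts were scaled by TMM and tested with edgeR 4.0.16 (glmQLFit, glmQLFTest, filterByExpr) in R 4.3.3, calling genes at a Benjamini-Hochberg adjusted p under 0.05 across the whole table tested. APAP was compared with vehicle within each genotype label (6 livers each) and over 12 livers with the label as covariate, and the labels were compared within each treatment and by an interaction. Alternatives were DESeq2 1.42.0 (size factors, Wald test), no filter, at least 10 counts in every liver, the replicate number as a block, limma 3.58.1 on quantile-normalized log2(TPM + 1), all 12 livers in one fit, and each liver left out in turn. The pipeline was tested on simulated data.

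The 10 genes and the lists were chosen with earlier results of these data known. Beside them the text names Gna12, of each list the 3 genes with the smallest unadjusted p over the 12 livers, and the 5 most similar genes; other genes were named after their values were seen. Depth was 49737950 to 69566079 counts per liver, and each library is a separate liver. Promoter sequences and coordinates are from RefSeq on GRCm38.p6. A pseudogene of Dnajb9, Gm6568, held at most 12 counts in any liver, and 1810014B01Rik, which shares 273 bases with Hsp90b1, at most 159.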

Additional observations from a re-analysis of the deposited data

How the results depend on the processing

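Over the 12 livers Hspa5, Eif2ak3, Dnajb9 and Ern1 stayed called under every alternative run, and 4 to 6 of the 10 genes were called higher with 1 liver left out. In WT livers 0 to 2 were called with 1 liver left out (0 without vehicle liver 1 or 3), and under the KO label 3 to 7; one fit of all 12 livers called 3 under the KO label, where Ern1 (edgeR adjusted p = 0.103) and Xbp1 (edgeR adjusted p = 0.151) were lost. With 1 liver left out, counts over all genes ran from 41 to 316 higher and 0 to 126 lower in WT, 1261 to 1967 and 734 to 1401 under the KO label, 0 to 9 and 0 to 7 between labels with vehicle, 1 to 4 and 0 to 3 after APAP, 1921 to 2683 and 1304 to 2128 over the 12 livers, and 0 to 1 each for the interaction. In WT, with 255 higher and 67 lower as reported, DESeq2 called 877 and 536 and one fit of 12 livers 968 and 555; under the KO label that fit called 844 lower in place of 1504. Between labels with vehicle (2 and 2), DESeq2 called 62 and 75, the one fit 0 and 0, and limma and the filter of 10 counts 1 lower each; after APAP (2 and 3), DESeq2 called 21 and 8, the one fit 0 and 0, the filter of 10 counts 0 and 1, and limma 6 lower. DESeq2 called 2 and 7 interactions in place of 0. The cause of these shifts was not tested.

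The labels state no pairing of animals by replicate number. Over 18 pairs of same-numbered livers 1 correlation of deviations exceeded 0.1 (range -0.26 to 0.11), which cannot exclude a link such as a shared litter. With the number as a block, WT calls were 61 higher and 1 lower, of the 10 genes Eif2ak3 remained called (edgeR adjusted p = 0.0472) and the call of Hspa5 was lost (edgeR adjusted p = 0.127), which leaves 1, and calls between labels were 0 and 0 with vehicle and 1 and 0 after APAP. The block also turned WT Xbp1 to 0.19 and the interaction of Pdia4 to -0.019.

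The sign turned in uncalled values alone. With limma it turned for WT Xbp1 (0.15), Hsp90b1 between labels after APAP (-0.16) and the interactions of Hsp90b1 (0.063) and Sdf2l1 (-0.060). With 1 liver left out the ranges that crossed 0 were, in WT, Creld2 -0.24 to 0.0087 and Xbp1 -0.55 to 0.89; under the KO label, Pdia4 -0.38 to 0.044; between labels with vehicle, Hsp90b1 -0.11 to 0.039, Hspa5 -0.21 to 0.060 and Xbp1 -0.0014 to 1.45; between labels after APAP, Dnajb9 -0.52 to 0.023, Eif2ak3 -0.16 to 0.18, Hsp90b1 -0.057 to 0.14 and Xbp1 -0.48 to 0.14; and for the interaction, Atf6 -0.040 to 0.25, Dnajb9 -0.25 to 0.38, Ern1 -0.27 to 0.30, Hsp90b1 -0.20 to 0.021, Hspa5 -0.015 to 0.29, Pdia4 -0.19 to 0.25 and Sdf2l1 -0.18 to 0.51. With 3 livers a group, 1 liver decides several calls; the 10 genes held no less than 259 counts in any liver, and the effect of depth was not tested.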
